A study of Mus musculus with 8 samples.

Results

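Blood leukocytes of the myeloid line carry receptors for the colony-stimulating factors and the transcription factors that set these receptors up, and 10 genes of this kind were read out in mouse blood after restraint. They were the rows of the deposited count table whose symbol was Csf3r, Csf2ra, Csf2rb, Csf2rb2, Csf1r, Cebpa, Cebpb, Cebpe, Spi1 or Gfi1, which made 10 of 21878 genes, and 10 of the 10 had enough counts to be tested. Whole peripheral blood was taken from wild-type female C57BL/6 mice aged 6 to 8 weeks. The stress group (n = 4) spent 6 h in a ventilated conical tube, and the control group (n = 4) were littermates left in their normal cage. Neither group had food or water during that time, so the comparison is of restraint in fasted mice, and all values come from RNA of all blood cells together, red cells and platelets included.

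Colony-stimulating factors drive the production, survival and activation of myeloid cells. G-CSF acts on neutrophils through the receptor encoded by Csf3r, GM-CSF acts through an alpha chain (Csf2ra) that pairs with the common beta chain (Csf2rb), and M-CSF acts on monocytes and macrophages through the tyrosine kinase encoded by Csf1r. The common beta chain also serves the receptors for IL-3 and IL-5, and mice have an additional beta chain, Csf2rb2, that serves IL-3. Spi1 encodes PU.1 and Cebpa encodes C/EBPα, which open the granulocyte and monocyte programs in progenitors. Cebpb is tied to granulocyte production in emergencies and to activation of macrophages, Cebpe to the last steps of neutrophil maturation, and Gfi1 encodes a repressor that favours neutrophils over monocytes.

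The promoters of the receptors are shown because PU.1 and C/EBP factors are known regulators of such genes. RefSeq windows of build GRCm38.p6, from 250 bases before to 50 bases after the start, matched 6 of the 10 genes with 7 windows (Gfi1 had 2). In the windows of Csf3r, Csf2ra and Csf2rb2, capitals mark each match on either strand to the PU.1 box GAGGAA or to the C/EBP pattern TTNNGNAA.
Csf3r, chr4:126024409-126024708, plus strand: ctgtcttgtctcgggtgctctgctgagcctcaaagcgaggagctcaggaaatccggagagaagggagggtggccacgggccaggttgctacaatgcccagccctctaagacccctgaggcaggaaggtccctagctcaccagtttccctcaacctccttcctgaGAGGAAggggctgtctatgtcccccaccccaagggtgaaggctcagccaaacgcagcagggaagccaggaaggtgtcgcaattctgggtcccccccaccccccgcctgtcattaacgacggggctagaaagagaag
Csf2ra, chr19:61228369-61228668, minus strand: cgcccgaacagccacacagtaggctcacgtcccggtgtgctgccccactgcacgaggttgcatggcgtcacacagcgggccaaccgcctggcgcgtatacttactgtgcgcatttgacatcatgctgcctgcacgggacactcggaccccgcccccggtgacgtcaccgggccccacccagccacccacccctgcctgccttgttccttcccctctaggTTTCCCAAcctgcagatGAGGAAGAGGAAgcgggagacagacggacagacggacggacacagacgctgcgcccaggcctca
Csf2rb2, chr15:78305672-78305971, minus strand: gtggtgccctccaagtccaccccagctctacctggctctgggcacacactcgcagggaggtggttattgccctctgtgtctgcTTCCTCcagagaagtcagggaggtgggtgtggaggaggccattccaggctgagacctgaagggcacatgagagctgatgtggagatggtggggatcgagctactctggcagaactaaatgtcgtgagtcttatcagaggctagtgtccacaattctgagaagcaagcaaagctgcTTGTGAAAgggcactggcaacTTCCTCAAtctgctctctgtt
The Csf3r window held 1 PU.1 box and 0 C/EBP matches, the Csf2ra window 2 and 1, and the Csf2rb2 window 2 and 2, where a PU.1 box and a C/EBP match share bases. The windows of Cebpa and Cebpb held 0 matches to either pattern, and of the 2 windows of Gfi1 1 held a C/EBP match. Among all 32851 RefSeq windows, 28.3% held a PU.1 box and 40.7% a C/EBP match. A palindromic glucocorticoid receptor motif, searched with any base allowed in its spacer and at 1 position in each arm, was found in 0.475% of all windows and in 0 of these 7. Such a match is a string of letters, and binding was not measured.

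The beta chains are close copies of each other, which bears on how reads were assigned to them. Both lie on GRCm38 chromosome 15, Csf2rb2 at 78282507 to 78305721 on the minus strand and Csf2rb at 78325752 to 78353847 on the plus strand (GENCODE M21). Their longest open reading frames were identical at 2505 of 2631 aligned bases (95.2%). The first 90 coding bases differ at 3 positions, which are in capitals.
Csf2rb: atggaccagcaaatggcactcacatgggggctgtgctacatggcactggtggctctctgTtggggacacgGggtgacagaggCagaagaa
Csf2rb2: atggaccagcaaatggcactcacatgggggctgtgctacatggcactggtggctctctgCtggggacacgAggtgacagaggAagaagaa
Of all windows of 50 bases in Csf2rb2 transcripts, 18.4% also occurred in a Csf2rb transcript, and of windows of 150 bases 3.34% did. A read from such a stretch cannot be placed in 1 of the genes, so their single values are less certain than their sum.

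Libraries held 31471145 to 39014775 counts in the control group and 25978683 to 29655725 in the stress group. Outside the haemoglobin genes this left 11412556 to 18774818 and 6355715 to 11009882, the fewest in stress replicate 3. Levels are in CPM, counts scaled to a library size that TMM had corrected, and TMM takes most genes as unchanged. Over 11718 tested genes the median log2 fold change was -0.03 on this scale and -0.82 with total counts as the only scaling. All log2 fold changes are stress minus control, tested by the quasi-likelihood method of edgeR with Benjamini-Hochberg adjustment over every tested gene. "Called" means past both cutoffs used in the study, a log2 fold change beyond 1 in size and an adjusted p under 0.01. "Rose" and "fell" need only an adjusted p under 0.05. In RNA from whole blood, more or fewer cells of a type and more or less RNA per cell cannot be told apart. The labels name no batch.

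After restraint, the myeloid genes were higher as a group: 9 of the 10 had a log2 fold change above 0, with a median of 0.97. The common beta chain Csf2rb, the IL-3 beta chain Csf2rb2 and Cebpa were called up, which is 3 of 10 against 1.69% of all tested genes, and 0 were called down (0.0171% of all). Spi1 and Cebpb rose as well, so that 5 of 10 were higher at an adjusted p below 0.05, against 10.4% of all tested genes, and 0 were lower (3.69% of all). The only gene below 0 was Gfi1, with an unadjusted p of 0.585 in edgeR. Its log2 fold change was also below 0 with DESeq2 (-0.14) and limma-voom (-0.40). At an adjusted p below 0.05 both of these gave 0 lower. For these same 5 genes the lowest stress sample exceeded the highest control sample, an order found in 11.1% of all tested genes. Without 1 sample the number called was 0 without control replicate 2, and it was 1 without control replicate 1 or 3 or without stress replicate 1, 3 or 4. On total counts alone 7 of the 10 were above 0 and 0 were called. Relative to the median gene of that scale, 9 of the 10 were again above.

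**Figure D1:**
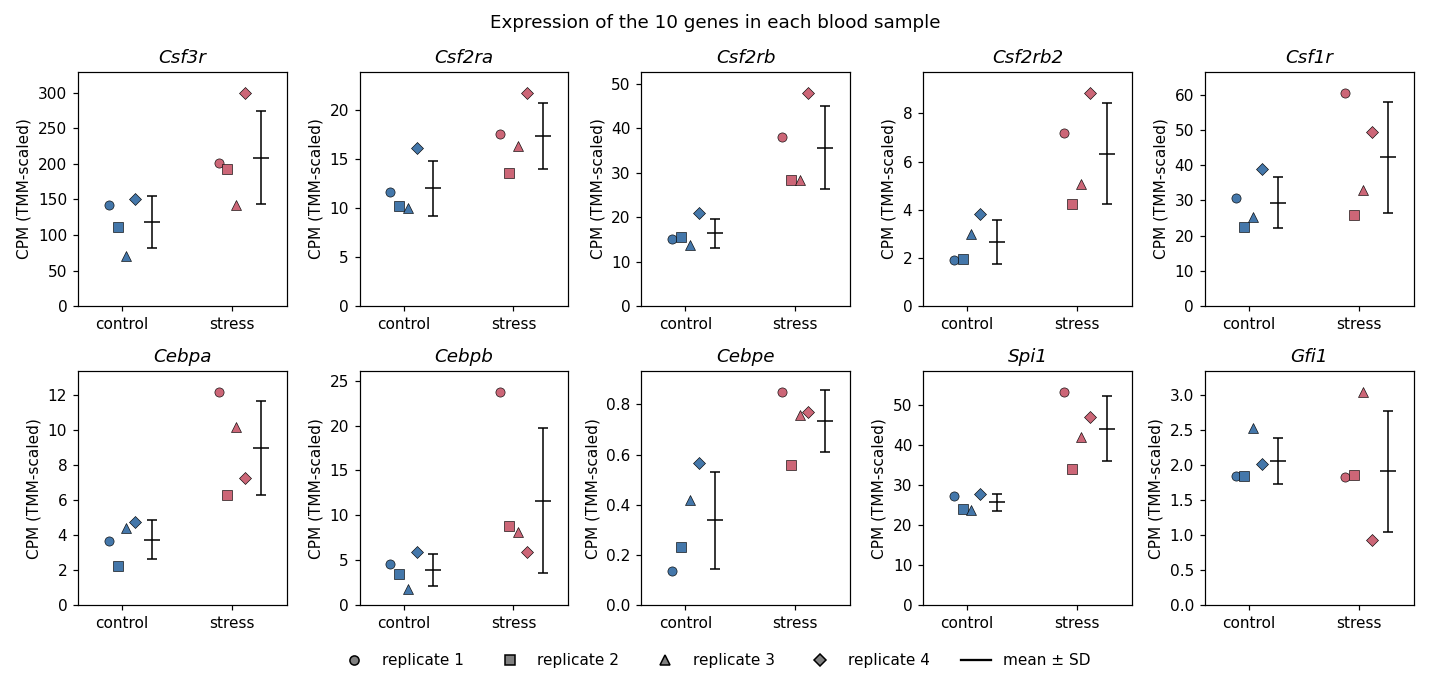
Expression of each of the 10 genes in CPM (TMM-scaled, linear axes from 0) in the 4 control and 4 stress samples, with the replicate number given by the symbol and the mean ± SD as bars. In Csf2rb, Csf2rb2, Cebpa, Cebpb and Spi1 all stress samples lie above all control samples, and Cebpb of stress replicate 1 stands far above the rest.

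Csf2rb, the signalling chain of the GM-CSF, IL-3 and IL-5 receptors, was measured at 15.2, 15.5, 13.8 and 21.0 CPM in control replicates 1 to 4 and at 38.1, 28.4, 28.3 and 47.9 CPM in stress replicates 1 to 4. The lowest stress sample was above the highest control sample. Mean Csf2rb rose from 16.4 ± 3.19 to 35.7 ± 9.37 CPM (SD, n = 4 each), and its log2 fold change was 1.13 with a standard error of 0.18 (adjusted p = 0.00241, edgeR). It stayed called in 6 of the 8 fits that left out 1 sample. The call was lost without control replicate 2 (adjusted p = 0.0104, edgeR) and without stress replicate 4 (log2 fold change 0.96), and in 8 of the 8 fits the adjusted p stayed below 0.05.

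Csf2rb2, the chain reserved for IL-3, was measured at 1.90, 1.94, 3.01 and 3.82 CPM in control replicates 1 to 4 and at 7.18, 4.22, 5.09 and 8.84 CPM in stress replicates 1 to 4. Here too the groups did not overlap, and stress replicates 4 and 1 were the highest, as for Csf2rb. Its mean rose from 2.67 ± 0.92 to 6.33 ± 2.08 CPM (SD, n = 4 each), with a log2 fold change of 1.27 and a standard error of 0.27 (adjusted p = 0.00894, edgeR). Without 1 sample that value ranged from 1.06 to 1.5. Csf2rb2 stayed called only in the fits without control replicate 4 and without stress replicate 2. In the other fits the adjusted p was 0.0283 without control replicate 1, 0.0353 without control replicate 2, 0.0208 without control replicate 3, 0.0262 without stress replicate 1, 0.0148 without stress replicate 3 and 0.0227 without stress replicate 4 (edgeR). When the counts of both beta chains were added into 1 row, an alternative chosen after seeing the data, the sum had a log2 fold change of 1.15 (adjusted p = 0.0026, edgeR).

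Csf2ra (GRCm38 chromosome 19, 61223957 to 61228429) encodes the alpha chain that binds GM-CSF, and its transcript stood at 11.7, 10.2, 10.02 and 16.1 CPM in control replicates 1 to 4 and at 17.5, 13.6, 16.3 and 21.7 CPM in stress replicates 1 to 4. Stress replicate 2 lay below control replicate 4, so the groups overlapped. The log2 fold change of Csf2ra was 0.54 (95% interval 0.17 to 0.91, adjusted p = 0.0519, edgeR), just short of 0.05. Without control replicate 4 the adjusted p was 0.00854 and without stress replicate 2 it was 0.0337, while in the other 6 fits without 1 sample it was 0.0868 to 0.153 (edgeR). The lowest log2 fold change was 0.41, without stress replicate 4. On total counts alone the sign turned, to -0.16, still above the -0.82 of the median gene.

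The balance of the alpha and beta chains of the GM-CSF receptor was read from their ratio. Within each sample the log2 ratio of Csf2rb to Csf2ra, which depends little on how libraries are scaled, was 0.38, 0.60, 0.46 and 0.38 in control replicates 1 to 4 and 1.12, 1.06, 0.79 and 1.14 in stress replicates 1 to 4. All stress samples were above all control samples, and the mean ratio was 1.49 times higher after restraint (difference 0.57 in log2). The two-sided exact permutation test gave p = 0.0286, the smallest that 4 samples against 4 allow. After adjustment over the 8 ratios that were compared it was 0.0571, which does not pass 0.05. With this smallest p, a single ratio could not pass after adjustment whatever its size. By contrast the log2 ratio of Csf2rb2 to Csf2rb was -2.63 ± 0.39 for controls and -2.51 ± 0.15 for stressed mice (SD, n = 4), and a difference was not detected (exact permutation test, p = 0.629).

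Csf3r (GRCm38 chromosome 4, 126024550 to 126044440), the receptor for G-CSF, had the highest level per kilobase of the 10 genes. Its values were 142.5, 110.9, 69.9 and 150.04 CPM in control replicates 1 to 4 and 200.8, 192.7, 141.9 and 299.3 CPM in stress replicates 1 to 4. Stress replicate 3, the library with the fewest counts outside haemoglobin, lay among the control samples, while stress replicate 4 was the highest of all. The log2 fold change of Csf3r was 0.82 (95% interval 0.26 to 1.38), and it missed the threshold with an adjusted p of 0.0546 (edgeR). It passed 0.05 without control replicate 4 (adjusted p = 0.032, edgeR), while in the other 7 fits without 1 sample the adjusted p was 0.0551 to 0.118 (edgeR). The log2 fold change ranged from 0.59 to 0.98 over these 8 fits.

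Neutrophils are the main carriers of the G-CSF receptor in blood, and their markers moved with the group. Of 10 neutrophil marker genes 9 were called up (median log2 fold change 1.48), and their summed level was 123.3 to 238.5 CPM in controls and 424.5 to 569.9 CPM after restraint. Their log2 fold changes ran from 0.97 (Mmp9) to 2.77 (Ly6g, with 2 to 18 counts per control sample). The list was chosen with earlier results of these data known. The log2 ratio of Csf3r to the mean of these markers was 4.02, 3.67, 3.47 and 3.70 in control replicates 1 to 4 and 2.92, 3.16, 2.38 and 3.23 in stress replicates 1 to 4. The groups did not overlap, with the stress samples lower by a difference of -0.79 in log2, or 0.576 times the control ratio. The two-sided exact permutation test gave p = 0.0286, again the smallest possible, adjusted 0.0571, which does not pass 0.05. By flow cytometry the study reported a significant increase of neutrophils in blood after restraint. The part of neutrophil number in the level of Csf3r was not tested.

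Csf1r (GRCm38 chromosome 18, 61100598 to 61132149), the M-CSF receptor of monocytes, was measured at 30.5, 22.5, 25.3 and 38.9 CPM in control replicates 1 to 4 and at 60.4, 25.8, 33.0 and 49.4 CPM in stress replicates 1 to 4. The groups overlapped broadly, with stress replicates 2 and 3 inside the control range. The log2 fold change was 0.53 (95% interval -0.01 to 1.07, adjusted p = 0.164, edgeR), and the lowest adjusted p over the 8 fits without 1 sample was 0.0601 (edgeR). On total counts alone it was -0.15. Of its 5774 exonic bases 873 overlap exons of Hmgxb3 on the opposite strand, and the strand setting of the counting is not given in the sources used here. Hmgxb3 itself had a log2 fold change of -0.29 (adjusted p = 0.117, edgeR).

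Monocyte subsets carry the M-CSF receptor at different levels, highest in non-classical monocytes, and their markers went in opposite directions. Of 8 classical monocyte markers 6 rose (5 of them called), with a summed level of 360.7 to 462.3 CPM in controls and 692.8 to 1166 CPM after restraint. Lyz2 alone gave 226.6 to 312.9 CPM of this in controls and 483.6 to 785.1 CPM after restraint. F13a1 gave 39.1 to 57.7 CPM in controls and 103.3 to 123.3 CPM after restraint. Which blood cells the RNA of these markers came from was not measured. Ms4a6c and Ms4a4c did not pass (log2 fold changes 0.02 and -0.10). By flow cytometry, which counts cells and not RNA, the study reported a sharp drop of monocytes in blood after restraint. These monocytes were gated as CD11b-positive cells with high Ly6C and no Ly6G. Ly6c2, a gene of the classical list, rose here by 0.83 on the log2 scale (adjusted p = 0.0341, edgeR). Of 8 non-classical markers 3 fell and 0 rose, and the summed level was 68.8 to 113.5 CPM against 48.5 to 86.7 CPM. The log2 ratio of Csf1r to the classical markers went from 0.65 ± 0.45 to -0.23 ± 0.16 (SD, n = 4), with all stress samples below all control samples. The markers weighed equally in this ratio, as the mean of their log2 CPM. Vcan, with 6 to 54 counts per control sample, had the largest log2 fold change of them (4.42). The ratio was not computed without Vcan. The log2 ratio of Csf1r to the non-classical markers went from 1.76 ± 0.05 to 2.77 ± 0.39 (SD, n = 4), with all stress samples above. Each gave a two-sided exact permutation p of 0.0286, the smallest possible, adjusted 0.0571, which does not pass 0.05. The part of the subsets in the level of Csf1r was not tested. The log2 ratio of Csf3r to Csf1r was 1.98 ± 0.38 for controls and 2.33 ± 0.52 for stressed mice (SD, n = 4), which the spread between samples does not separate (exact permutation test, p = 0.314).

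**Figure D2:**
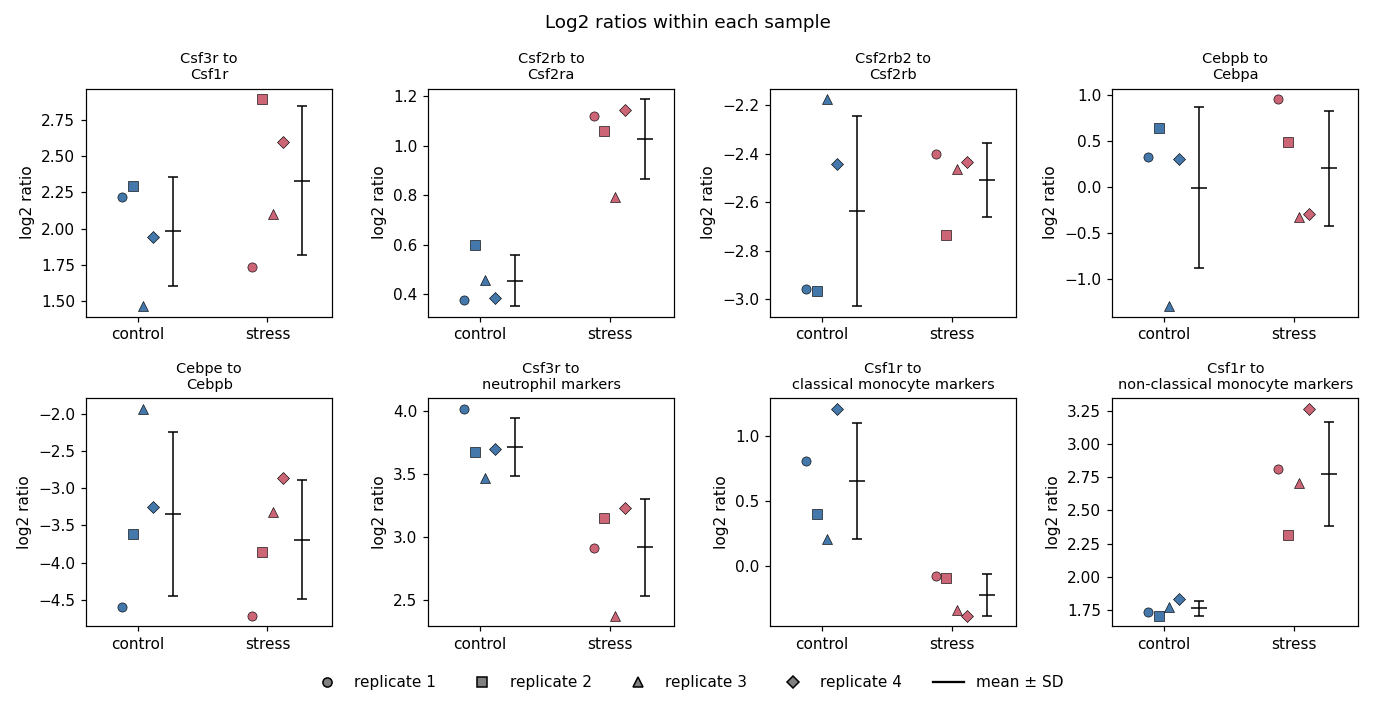
Log2 ratios within each of the 8 samples for 8 pairs, each a gene compared with another gene or against the mean of a marker list, with the mean ± SD beside the points (axes do not start at 0). The ratio of Csf2rb to Csf2ra and that of Csf1r to non-classical monocyte markers are higher in all stress samples, those of Csf3r to neutrophil markers and Csf1r to classical monocyte markers lower, and the other 4 overlap.

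Among the transcription factors Spi1 (GRCm38 chromosome 2, 91082390 to 91115756), the gene of PU.1, was the most abundant per kilobase. Its values were 27.2, 23.9, 23.8 and 27.7 CPM in control replicates 1 to 4 and 53.1, 34.1, 41.9 and 47.1 CPM in stress replicates 1 to 4, with no overlap. Mean Spi1 rose from 25.6 ± 2.07 to 44.0 ± 8.05 CPM (SD, n = 4 each), with a log2 fold change of 0.78 and a standard error of 0.13 (adjusted p = 0.0025, edgeR). It missed the fold change threshold and kept an adjusted p below 0.05 in 8 of the 8 fits without 1 sample, with log2 fold changes from 0.71 to 0.91. On total counts alone the log2 fold change of Spi1 was 0.03, which is 0.85 above the median gene of that scale.

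Cebpa (GRCm38 chromosome 7, 35119293 to 35121928, a single exon) stood at 3.67, 2.23, 4.39 and 4.76 CPM in control replicates 1 to 4 and at 12.2, 6.31, 10.2 and 7.30 CPM in stress replicates 1 to 4. The groups did not overlap, and stress replicates 1 and 3 were the highest. Cebpa rose from 3.76 ± 1.12 to 8.99 ± 2.68 CPM (SD, n = 4 each), with a log2 fold change of 1.25 and a standard error of 0.25 (adjusted p = 0.00725, edgeR). Leaving out a sample kept the call in 3 of 8 fits, and in the others the adjusted p was 0.0185 without control replicate 1, 0.0175 without control replicate 2, 0.0137 without control replicate 3, 0.0225 without stress replicate 1 and 0.0271 without stress replicate 3 (edgeR).

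Cebpb (GRCm38 chromosome 2, 167688915 to 167690418, a single exon) had the largest log2 fold change of the 10 and, in the stress group, the least even samples (coefficient of variation 69.6%). Its values were 4.62, 3.5, 1.76 and 5.90 CPM in control replicates 1 to 4 and 23.7, 8.86, 8.12 and 5.96 CPM in stress replicates 1 to 4. The lowest stress sample was above the highest control sample by less than 0.1 CPM, and stress replicate 1 was far above the other stress samples. Cebpb rose from 3.95 ± 1.75 to 11.7 ± 8.11 CPM (SD, n = 4 each), and its log2 fold change was 1.60 with a standard error of 0.44 (adjusted p = 0.0332, edgeR). Without stress replicate 1 the log2 fold change was 1.00 with an adjusted p of 0.0752 (edgeR). It also missed 0.05 without control replicate 2 (0.0728), control replicate 3 (0.104), stress replicate 2 (0.0687) and stress replicate 3 (0.126), all edgeR. With all 8 samples it missed 0.05 when no count filter was used (0.156) and with a replicate block (0.0817), both edgeR. Of its 1504 exonic bases 312 overlap exons of Tmem189 on the opposite strand, which had a log2 fold change of 0.22 (adjusted p = 0.164, edgeR).

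Cebpe (GRCm38 chromosome 14, 54710360 to 54712174) was barely detected, with 5, 12, 29 and 18 counts in control replicates 1 to 4 and 19, 12, 10 and 24 counts in stress replicates 1 to 4. In CPM this was 0.136, 0.232, 0.419 and 0.568 against 0.848, 0.557, 0.759 and 0.768, so that stress replicate 2 lay just below control replicate 4. The log2 fold change of Cebpe was 1.11 with a wide 95% interval from 0.13 to 2.1 (adjusted p = 0.117, edgeR), and at this depth a change could not be separated from the spread between samples. Its ratio to Cebpb overlapped between groups (exact permutation test, p = 0.657), as did that of Cebpb to Cebpa (p = 0.714).

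Gfi1 (GRCm38 chromosome 5, 107716657 to 107726036) was the only gene of the 10 with a log2 fold change below 0 on the TMM scale. It was measured at 1.85, 1.84, 2.53 and 2.02 CPM in control replicates 1 to 4 and at 1.83, 1.86, 3.04 and 0.928 CPM in stress replicates 1 to 4. Stress replicate 3 was the highest sample and stress replicate 4 the lowest, so the stress group spanned the control group. Its log2 fold change was -0.17 (95% interval -0.82 to 0.48, adjusted p = 0.745, edgeR), and without stress replicate 4 it was 0.09. On total counts alone Gfi1 fell by 1.08 on the log2 scale (adjusted p = 0.0256, edgeR), which is 0.26 below the median gene of that scale.

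**Figure D3:**
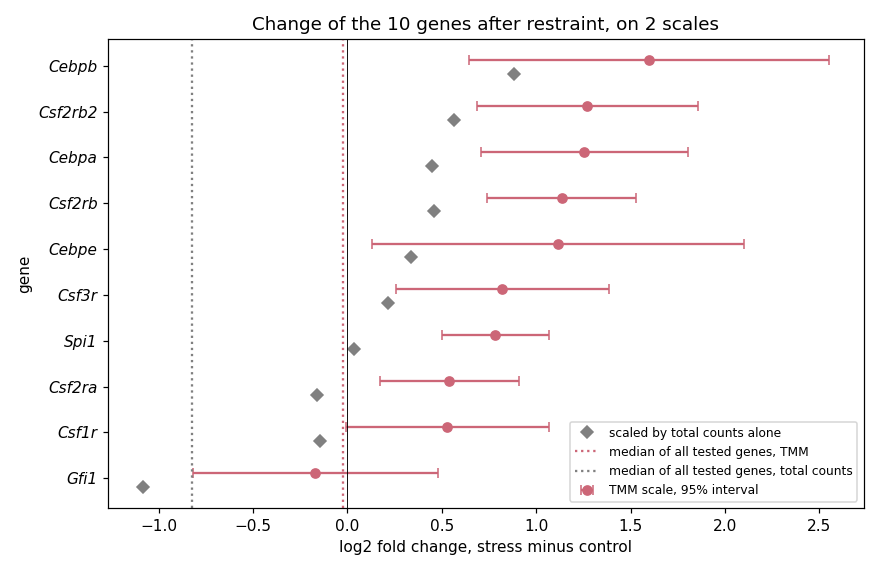
Log2 fold change (stress minus control) of each gene on the TMM scale with its 95% interval, beside the value from total counts alone; dotted lines mark the median of all tested genes on each scale. The TMM intervals of Gfi1 and Csf1r reach 0, and total counts alone move the median gene from -0.03 to -0.82.

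Levels of different genes were compared per kilobase of exon. In the control group Csf3r was highest at 32.8 ± 10.1 CPM per kb, then came Spi1 at 9.52 ± 0.77, Csf1r at 5.08 ± 1.25, Csf2ra at 4.18 ± 0.98, Cebpb at 2.62 ± 1.17, Csf2rb at 2.25 ± 0.44, Cebpa at 1.43 ± 0.43, Gfi1 at 0.646 ± 0.102, Csf2rb2 at 0.562 ± 0.195 and Cebpe at 0.273 ± 0.155 (SD, n = 4). The ranges of Csf1r and Csf2ra overlapped, as did those of Csf2ra and Cebpb, Cebpb and Csf2rb, Gfi1 and Csf2rb2, and Csf2rb2 and Cebpe. In the stress group Csf3r (57.8 ± 18.2 CPM per kb) and Spi1 (16.3 ± 2.99) had the highest means and Cebpe (0.591 ± 0.100) the lowest. The ranges of Spi1 and Cebpb overlapped there, as did those of Gfi1 and Cebpe, and only Csf3r and Cebpa lay wholly above the next gene. Gfi1, at 0.600 ± 0.271 CPM per kb, came after Csf2rb2 at 1.34 ± 0.44, and their ranges again overlapped.

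The samples did not rank alike across the genes. In the control group replicate 4 was the highest for 9 of the 10 genes. In the stress group replicate 4 was the highest for Csf3r, Csf2ra, Csf2rb and Csf2rb2, whereas replicate 1 was the highest for Csf1r, Cebpa, Cebpb, Cebpe and Spi1. Stress replicate 2 was the lowest stress sample for 6 of the 10. Among the marker lists, the neutrophil sum was highest in stress replicate 4 (569.9 CPM) and the classical monocyte sum in stress replicate 1 (1166 CPM). Lyz2 alone gave 779.2 CPM of that monocyte sum. Among the stress samples Ccr2, F13a1, Fn1, Vcan, Ms4a6c and Ms4a4c were highest in replicate 4, Lyz2 in replicate 3 and Ly6c2 in replicate 1.

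For each gene the profile of mean-centred log2 CPM over the 8 samples was set against those of 10301 other genes with a mean of at least 1 CPM. The measure was the root mean square difference in log2 units, where a smaller value means a more similar profile. Nearest to Csf3r was Trpm2 (0.0998), to Csf2ra Relt (0.0983), to Csf2rb Lilrb4a (0.127), to Csf2rb2 Ccl9 (0.197) and to Csf1r Glrx (0.133). Mefv was among the nearest 3 of both beta chains (0.134 for Csf2rb, 0.219 for Csf2rb2). Nearest to Spi1 was Apobr (0.105), to Cebpa Lyz2 (0.245), to Cebpe Tlr2 (0.327) and to Gfi1 Dusp10 (0.158). Cebpb was nearest to Sox6 (0.276), Tinagl1 (0.314) and Ank1 (0.332), the last a gene of the red cell skeleton. All 8 samples share 1 comparison, so genes with a like group difference come out alike.

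Of the 6 ligand genes on the list, 5 were too low to test. Csf2 (GM-CSF) and Il3 had 0 counts in every sample, Csf3 (G-CSF) had 1 to 4 counts per control sample and 0 per stress sample, Il5 had 0 to 2 and Il34 2 to 14, so changes were not detectable at this depth. Csf1 (M-CSF) was tested alone of the 6 and rose from 5.66 ± 1.78 to 9.49 ± 1.75 CPM (SD, n = 4 each), without overlap between groups (log2 fold change 0.77, adjusted p = 0.0323, edgeR).

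Of 6 related receptors of blood formation 3 rose and 1 fell at an adjusted p below 0.05, and 0 were called. Epor, the erythropoietin receptor, rose by a log2 fold change of 1.24 (adjusted p = 0.0198, edgeR) and Flt3, a receptor of progenitors and dendritic cells, by 1.29 (adjusted p = 0.0272, edgeR). Il5ra, the IL-5 receptor chain that pairs with Csf2rb, was measured at 5.80 to 6.21 CPM in controls and at 2.73 to 4.15 CPM after restraint. It fell by 0.80 on the log2 scale (adjusted p = 0.00626, edgeR), opposite to its partner. In blood Il5ra marks eosinophils and some B cells. Of 4 eosinophil markers, Epx and Prg2 had at most 7 counts in a sample, Siglecf rose by 1.12 (adjusted p = 0.0424, edgeR) and Ccr3 had a log2 fold change of 0.25 (adjusted p = 0.554, edgeR). The summed level of Siglecf and Ccr3 was 1.82 to 3.27 CPM in controls and 3.34 to 4.69 CPM after restraint. Of 6 B cell markers 3 fell, with a summed level of 846.1 to 1036 CPM in controls and 582.3 to 779.3 CPM after restraint. The part of eosinophils and of B cells in the value of Il5ra was not tested.

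Signalling genes below the receptors were mostly close to the median gene. Of 17 tested 3 rose, 0 fell and 0 were called, with a median log2 fold change of 0.10. The tyrosine phosphatase gene Ptpn11 rose by 0.64 (adjusted p = 0.00846), the adaptor gene Gab2 by 0.96 (0.0198) and the Src family kinase gene Lyn by 0.49 (0.0124, all edgeR). The kinase Jak2 had a log2 fold change of 0.30 (adjusted p = 0.078), and Stat3, Stat5a and Stat5b had values of 0.12, -0.07 and 0.10. Of 7 genes that STAT factors induce or that damp the signal, Pim1 rose by 0.68 (adjusted p = 0.0151) and Socs3 by 0.50 (0.0323, both edgeR), the other 5 did not pass, and the median was 0.50.

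Of 25 other myeloid transcription factors 5 rose and 0 fell, 4 of them called, with a median log2 fold change of 0.32. Cebpd, the C/EBP family member of acute inflammation, was measured at 4.02 to 7.13 CPM in controls and at 12.8 to 17.4 CPM after restraint, a log2 fold change of 1.43 (adjusted p = 9.00e-04, edgeR). Its stress samples were far more even than those of Cebpb. Id1 rose by 1.82 (adjusted p = 0.00479), Gfi1b by 1.09 (0.00872), Gata2 by 1.05 (0.00106) and Zeb2 by 0.61 (0.0107, all edgeR). Cebpd stayed called in 8 of the 8 fits without 1 sample. The number called was 4 without control replicate 4, 3 without stress replicate 3, 1 without stress replicate 1 and 2 without any other sample. Gfi1b, the close relative of Gfi1, and Gata2 are known from megakaryocytes, red cell precursors and basophils. Platelet markers rose in 6 of 6, with sums of 1165 to 1735 CPM in controls and 2582 to 3301 CPM after restraint, and the basophil genes Mcpt8, Fcer1a and Prss34 had at most 15 counts in a sample. The 2 tested basophil markers, Ms4a2 and Cpa3, had log2 fold changes of -1.05 and -0.48 (adjusted p = 0.164 and 0.543, edgeR). Erythroid markers had log2 fold changes above 0 in 7 of 7 (median 1.06), of which 1 rose, and haemoglobin genes took 51.9% to 63.8% of the counts in controls and 61.2% to 75.5% after restraint. The summed erythroid level was highest in stress replicate 3, as was Gfi1b at 7.59 CPM, whereas Gata2 was highest in stress replicate 1 at 16.3 CPM. The part of platelets and of red cells in Gfi1b and Gata2 was not tested. Irf8, which favours monocytes and B cells, had a log2 fold change of -0.31 (adjusted p = 0.0653, edgeR) with all stress samples below the control samples, an order found in 9.88% of tested genes.

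Genes of the secondary granules, which need C/EBPε during maturation, could be tested in 5 of 7. Lcn2 rose from 4.72 ± 1.13 to 20.4 ± 6.25 CPM and Mmp8 from 9.76 ± 2.35 to 41.0 ± 21.5 CPM (SD, n = 4 each), with log2 fold changes of 2.12 and 2.09 (adjusted p = 9.00e-04 and 0.0025, edgeR). Cd177 rose by 1.46 (adjusted p = 0.00904, edgeR). Lcn2 stayed called in 8 of the 8 fits without 1 sample, Mmp8 in all but those without control replicate 3 or stress replicate 3, and Cd177 only in those without control replicate 4 or stress replicate 2. Ngp and Ltf had log2 fold changes of 0.81 and 0.84 (adjusted p = 0.154 and 0.209, edgeR), and Camp had 0 to 8 counts in each group. The genes of the primary granules, Elane, Mpo, Prtn3 and Ctsg, mark promyelocytes of the bone marrow and had at most 8 counts in any sample, so they were not tested.

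**Figure D4:**
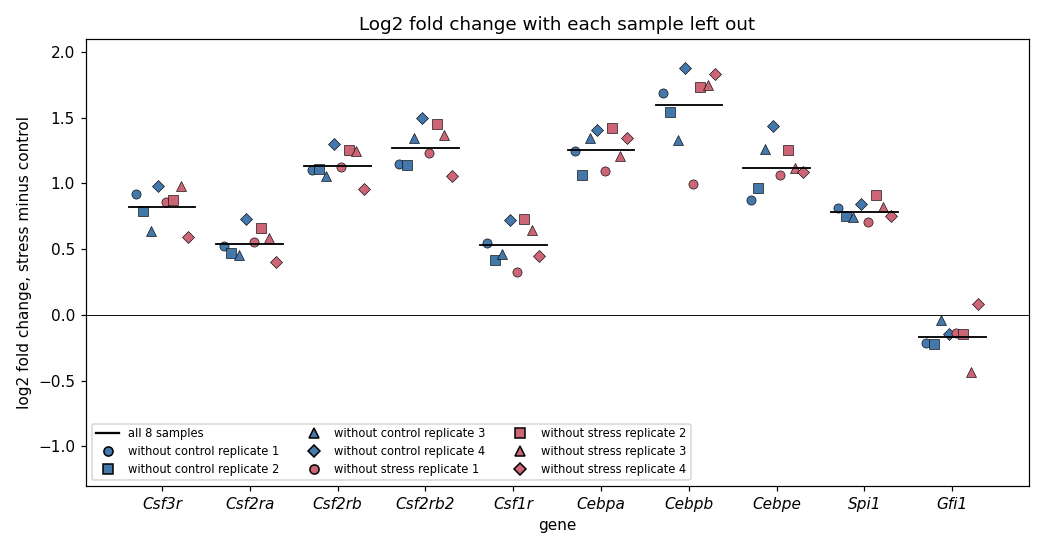
Log2 fold change of each gene (stress minus control) with each of the 8 samples left out, beside the value from all 8 samples as a line. Cebpb drops from 1.60 to 1.00 without stress replicate 1, and Gfi1 is the only gene whose value changes sign.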

How the data were processed

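Blood RNA of 4 control and 4 stress mice was read in 1 library each. The table that the authors deposited holds raw counts by gene symbol, with a column for each sample. The submitters' processing notes name HISAT2, featureCounts and mm10, while the annotation, strand setting and handling of reads with several matches are not given in the sources used here. Columns were matched to samples by their labels.

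Genes that reached 10 counts in 4 or more samples entered edgeR 4.0.16 in R 4.3.3 (TMM, robust quasi-likelihood test, group as the only term). A check of this fit on simulated data planted larger changes than those of the 10 genes, equally many up and down. It therefore does not cover changes of their size. Log2 CPM for ratios used a prior count of 2, and exact permutation tests ran over 70 assignments. Coordinates and exon lengths are from GENCODE M21 (GRCm38). The alternatives were DESeq2 1.42.0, limma-voom (limma 3.58.1), other normalizations and count filters, removal of haemoglobin genes, a replicate block, a prior count of 0.5, and leaving out each sample. The genes, gene lists, ratios and tests were chosen with earlier results of these data known. The text names each of the 10 genes, list genes past either threshold (1 is not reported here), the nearest profiles, and others singled out after their values were seen (Irf8, Jak2, the STAT genes, Tmem189, Hmgxb3). Intervals and p-values measure the spread between these samples.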

Additional observations from a re-analysis of the deposited data

Results flagged for a closer look

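Within each group of 4 samples, the gap of the highest or lowest sample to its neighbour was compared with the range of the group for the 10 genes and 8 ratios. Of 36 such groups 1 stood out, and chance gives about 1 in 20. It was Cebpb in stress replicate 1, at 23.7 CPM against 5.96 to 8.86 CPM in the other stress samples, a gap of 0.836 of the range. The raw count was 531 there and 107 to 191 in the other stress samples. The gaps were taken in linear CPM for the genes and in log2 for the ratios. For the genes they were not also computed in log2, where a high sample stands out less.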

How the results depend on the processing

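The number of the 10 genes called was 3 with all samples and 3 with DESeq2, limma-voom, RLE size factors, upper quartile scaling, no count filter and without the haemoglobin genes, and in each of these the genes were Csf2rb, Csf2rb2 and Cebpa. It was 2 when at least 10 counts were asked in every sample, where Cebpe was not tested and Csf2rb2 had an adjusted p of 0.0101 (edgeR), and 0 on total counts alone, with or without the haemoglobin genes. Without 1 sample it ranged from 0 (without control replicate 2) to 3. It was 1 without control replicate 1, control replicate 3, stress replicate 1, stress replicate 3 or stress replicate 4. Csf3r passed 0.05 with DESeq2 (adjusted p = 0.0137), RLE size factors (0.0482) and upper quartile scaling (0.0432). Csf2ra passed with DESeq2 (0.0436), limma-voom (0.041), upper quartile scaling (0.0443) and no count filter (0.0402). Cebpb missed 0.05 with no count filter (0.156). Over all genes 198 were called up and 2 down, against 307 and 12 with DESeq2 (319 in all) and 14 and 728 on total counts alone (742 in all). Without the haemoglobin genes, total counts gave 57 up and 137 down. Without 1 sample the total ranged from 77 (without control replicate 2) to 345 (without control replicate 4), and it was 96 without control replicate 3. On total counts alone the log2 fold changes of Csf2ra and Csf1r turned to -0.16 and -0.15, and without 1 sample that of Gfi1 ranged from -0.43 to 0.087, the last without stress replicate 4. The cause was not tested.

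The related receptors had 0 calls, but 2 with DESeq2 (Epor, Flt3), 1 on total counts alone and 1 without haemoglobin genes on total counts (Il5ra, down), and 0 to 1 without 1 sample. Signalling genes had 1 with limma-voom (Gab2) and 0 to 1 without 1 sample. The other transcription factors had 4 calls, 2 on total counts alone (Myb and Spib, down), 1 without haemoglobin genes on total counts (Cebpd), and 1 (without stress replicate 1) to 4 without 1 sample. The secondary granule genes had 3, and 1 to 3 without 1 sample.

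Without 1 sample the log2 ratio differences ranged from 0.54 to 0.65 for Csf2rb to Csf2ra, -0.90 to -0.61 for Csf3r to neutrophil markers, -1.03 to -0.69 for Csf1r to classical and 0.85 to 1.16 for Csf1r to non-classical monocyte markers, with exact p of 0.0286 or 0.0571. They ranged from -0.22 to 0.43 for Cebpb to Cebpa (-0.22 without control replicate 3, -0.04 without stress replicate 1) and from -0.76 to 0.13 for Cebpe to Cebpb (0.13 without control replicate 3, 5.17e-04 without stress replicate 1), so their direction was not settled. A prior count of 0.5 changed no call or direction of a ratio.

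Same-numbered samples did not deviate together (correlations of 0.06, 4.43e-04, -0.04 and -0.16 over tested genes), and 1 of 4 control samples correlated best with its own number, so the numbers were taken as names. With the replicate block 189 genes were called up and 1 down, the same 3 of the 10 genes were called, Cebpb missed 0.05 (adjusted p = 0.0817), Csf3r and Csf2ra passed it (0.0075 and 0.0154), and of the related receptors 1 was.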

Other observations

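Small counts in the deposited table were mostly even. Of 18637 values between 1 and 10, 13442 (72.1%) were even, and 5438 values were equal to 2 against 1740 equal to 1. The genes near this range here include Cebpe, with 5 to 29 counts per sample, and all genes that were not tested. They also include the markers Ly6g, with 2 to 18 counts in controls, and Vcan, with 6 to 54 in controls. Whether a count is a read or a read pair is not given in the sources used here, so the number of RNA fragments behind such counts is not known.

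The dendritic cell gene Xcr1 was the only 1 of 5 dendritic cell markers past both thresholds (log2 fold change 1.48, adjusted p = 0.00485, edgeR). Of these markers 3 had log2 fold changes above 0 and 2 below, Siglech (-0.98) and Itgax (-0.41). The summed dendritic cell level overlapped between groups, at 11.9 to 20.03 CPM in controls and 12.8 to 15.5 CPM after restraint. The basophil markers could be tested in 2 of 5, and summed to 0.707 to 1.67 CPM in controls and 0.312 to 1.11 CPM after restraint. T cell markers summed to 251.1 to 285.6 CPM and 237.1 to 306.8 CPM, NK cell markers to 52.6 to 90.4 CPM and 43.7 to 107.2 CPM, and markers of progenitors and cycling cells to 8.80 to 14.5 CPM and 13.2 to 19.4 CPM.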
